A study of Mus musculus with 12 samples.

Results

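The genes described here are the 7 mouse genes that encode inhibitors of the cyclin-dependent kinases, taken by name from 21938 protein-coding genes: Cdkn1a, Cdkn1b and Cdkn1c of the Cip/Kip family and Cdkn2a, Cdkn2b, Cdkn2c and Cdkn2d of the INK4 family. For each of them, the called peaks of H3K4me3, H3K4me1, H3K27me3 and H3K9me3 were taken over the gene body and 5 kb on either side, in crypts and in villi. Every one of the 7 genes had an H3K4me3 peak at a start site in both compartments. Such a peak was found at 57.5% of all genes in crypts and 57.7% in villi. H3K27me3, the mark of Polycomb repression, was called in the windows of 3 of the 7 genes in both compartments (Cdkn1c, Cdkn2a and Cdkn2b), beside 17.9% of all genes in crypts and 23.0% in villi. It lay over both start sites of Cdkn2a and over the internal one of the 2 start sites of Cdkn1c. At Cdkn2b the peak found in both compartments lay outside the gene and a further one in crypts lay over its 3′ part, and the other 4 had none, so that the name of Polycomb targets did not hold for all 7 in these lists. It covered 95.6% of the Cdkn2a window in crypts and 83.9% in villi, 37.2% and 15.1% of the Cdkn2b window, and 18.1% and 76.0% of the Cdkn1c window. No H3K9me3 peak lay in any of the 7 windows, beside 3.91% and 3.12% of all genes.

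The libraries were made from mouse small intestine by chromatin immunoprecipitation with a 5% addition of Drosophila S2 chromatin, in a study of how the N-terminal tail of histone H3 is cut during differentiation. Villi, the differentiated part of the epithelium, were scraped off, and crypts, which hold the stem, Paneth and dividing cells, were released with EDTA. Each compartment gave 1 library for each modification and 1 input, 12 libraries in all. The tissue carried no stated treatment, and the strain, the age and any pooling of mice are not given in the sources used here. With 1 library per compartment and modification there is no replicate error, so crypts and villi values are set side by side with no test. The lists hold peak positions and scores and no read counts, so the depth of each library is unknown. The 8 lists held between 2089 peaks (villi H3K9me3) and 55341 (villi H3K4me1). H3K27me3 gave 7611 peaks over 20.3 Mb in crypts and 13797 peaks over 35.6 Mb in villi, and this excess of villi peaks stands behind every comparison of H3K27me3 below. The H3K9me2 lists of 6 and 3 regions had none over the 7 genes.

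Cyclin-dependent kinases drive the cell cycle, and these inhibitors hold it back. The Cip/Kip proteins p21 (Cdkn1a), p27 (Cdkn1b) and p57 (Cdkn1c) bind cyclin and kinase together and act mainly on Cdk2 complexes, whereas the INK4 proteins p16 (Cdkn2a), p15 (Cdkn2b), p18 (Cdkn2c) and p19 (Cdkn2d) bind Cdk4 and Cdk6 and keep them from the D cyclins. Cdkn2a also encodes Arf, a protein read from its own first exon in another frame, which stabilises p53 through Mdm2. Polycomb complexes deposit H3K27me3, and the neighbouring Cdkn2a and Cdkn2b genes are among their best known targets. H3K4me3 marks promoters, H3K4me1 marks enhancers and promoter flanks, and H3K9me3 marks constitutive heterochromatin.

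Promoter sequences, from 250 bases before to 50 bases after a start site, are given for the Cdkn2a starts that lay under H3K27me3 and for 3 starts that did not. Together the printed promoters span the range of CpG content among these genes, from 2 to 45 CG dinucleotides. They are RefSeq sequences on GRCm38.p6, 5′ to 3′ on the strand of the gene, with each CG dinucleotide in capitals. The Arf promoter of Cdkn2a is chr4:89294570-89294869 (minus strand) and its p16 promoter is chr4:89282143-89282442 (minus strand). The upstream and downstream promoters of Cdkn1a are chr17:29090729-29091028 and chr17:29093519-29093818 (plus strand), and that of Cdkn2b is chr4:89310983-89311282 (minus strand).
Cdkn2a, Arf promoter: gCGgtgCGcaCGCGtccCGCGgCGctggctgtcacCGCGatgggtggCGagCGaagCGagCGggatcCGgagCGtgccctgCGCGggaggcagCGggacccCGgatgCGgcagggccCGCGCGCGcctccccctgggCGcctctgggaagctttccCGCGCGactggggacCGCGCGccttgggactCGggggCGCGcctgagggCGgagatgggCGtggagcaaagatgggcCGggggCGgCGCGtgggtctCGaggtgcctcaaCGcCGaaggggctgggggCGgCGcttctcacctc
Cdkn2a, p16 promoter: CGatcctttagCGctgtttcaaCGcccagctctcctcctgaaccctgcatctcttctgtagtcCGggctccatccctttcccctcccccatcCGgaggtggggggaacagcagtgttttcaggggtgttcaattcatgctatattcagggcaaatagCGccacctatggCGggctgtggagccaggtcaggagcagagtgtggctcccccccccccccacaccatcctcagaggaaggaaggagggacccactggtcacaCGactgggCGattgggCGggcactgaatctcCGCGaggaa
Cdkn1a, upstream promoter: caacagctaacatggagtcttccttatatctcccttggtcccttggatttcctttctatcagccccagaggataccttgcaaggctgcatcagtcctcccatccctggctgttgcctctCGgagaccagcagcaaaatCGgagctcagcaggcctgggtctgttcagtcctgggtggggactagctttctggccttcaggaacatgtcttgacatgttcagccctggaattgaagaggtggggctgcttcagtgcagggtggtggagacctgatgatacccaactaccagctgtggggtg
Cdkn1a, downstream promoter: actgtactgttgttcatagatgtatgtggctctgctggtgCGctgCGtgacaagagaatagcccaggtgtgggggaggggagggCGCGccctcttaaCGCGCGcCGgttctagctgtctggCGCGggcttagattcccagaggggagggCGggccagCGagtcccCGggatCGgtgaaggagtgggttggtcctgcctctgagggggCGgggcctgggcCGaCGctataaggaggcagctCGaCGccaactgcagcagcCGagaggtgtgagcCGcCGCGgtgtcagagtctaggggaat
Cdkn2b promoter: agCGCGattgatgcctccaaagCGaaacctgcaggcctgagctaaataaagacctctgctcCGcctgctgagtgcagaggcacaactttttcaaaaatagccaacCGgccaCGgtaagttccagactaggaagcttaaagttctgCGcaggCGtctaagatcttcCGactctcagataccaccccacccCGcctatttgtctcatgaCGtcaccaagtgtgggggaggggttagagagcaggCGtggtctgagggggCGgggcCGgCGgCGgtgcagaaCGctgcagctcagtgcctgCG

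RefSeq promoters were matched for 6 of the 7 genes, 9 promoters in all, and Cdkn1c had no entry. The Arf promoter held 45 CG dinucleotides, more than 98.1% of the 32851 promoters counted, which leave out chromosome 18 and have a median of 7. All 300 bases of it lay under H3K27me3 and under H3K4me3 in crypts, and in villi 154 bases lay under H3K27me3 and 300 under H3K4me3. The p16 promoter of the same gene held 12 and lay wholly under H3K27me3 in both compartments, with no H3K4me3. Of the Cdkn1a promoters, the downstream one held 23 and lay wholly under H3K4me3 in both, whereas the upstream one held 2 and had no peak of any mark. The Cdkn2b promoter held 18, was covered by H3K4me3 in both compartments and had no H3K27me3. Among promoters not printed, a Cdkn2c promoter held 33 and that of Cdkn1b held 30, also with H3K4me3 and without H3K27me3 in both compartments. Across the promoters counted the median was 22 with H3K4me3 and 3 without it in crypts, and 17 with H3K27me3 and 6 without it. The motif GGGCGG, searched on both strands, occurred in 7 of the 9 promoters and in 35.7% of the promoters counted, CCAAT in 4 of the 9 and 37.4%, and TATAAA in 0 of the 9 and 13.6%. The motif GGGCGG itself holds a CG dinucleotide.

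In the gene windows, H3K4me3 was called at 7 of 7 genes in crypts and in villi, where 63.3% and 63.6% of all protein-coding genes had a peak. H3K4me1 was also called at 7 of 7 in both, beside 69.2% and 68.9%. H3K27me3 was called at 3 of 7 in both, beside 17.9% in crypts and 23.0% in villi, and H3K9me3 at 0 of 7 in both, beside 3.91% and 3.12%. The gene count for H3K27me3 included 1 of 3 Cip/Kip genes and 2 of 4 INK4 genes.

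Within 1 kb of a protein-coding start site the counts were lower for H3K27me3 and H3K4me1. H3K4me3 was found at 7 of 7 genes in both compartments, beside 57.5% and 57.7% of genes. H3K4me1 was found at 6 of 7 in each, beside 57.7% and 55.9%, and the gene without it was Cdkn2b in crypts and Cdkn1b in villi. H3K27me3 was found at 2 of 7 in each, Cdkn1c and Cdkn2a, beside 13.0% and 16.0%. H3K9me3 was found at 0 of 7, beside 0.378% and 0.31%. These 7 genes have 12 start sites when starts of 1 gene under 500 bp apart are joined, and H3K4me3 lay within 1 kb of 10 of them in both compartments, with the p16 start of Cdkn2a and the upstream start of Cdkn1a the ones without it. The share of all start sites with H3K4me3 was not counted, so this count has no background, and the shares per gene do not serve as one.

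The median share of the window under H3K4me3 peaks was 30.2% in crypts and 24.9% in villi, beside a median over all genes of 2.68% and 2.62% and over genes with a peak of 6.28% and 6.17%. For H3K4me1 the medians were 21.5% and 22.1%, beside 5.15% and 4.95% over all genes and 10.1% and 10.3% over genes with a peak. The windows of the 7 genes were 12712 to 30183 bp long, and shares were not compared at matched length. The lowest H3K4me3 share was that of Cdkn2a, 5.61% in crypts and 6.70% in villi, and the highest was that of Cdkn1b, 64.4% and 53.1%.

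**Figure D1:**
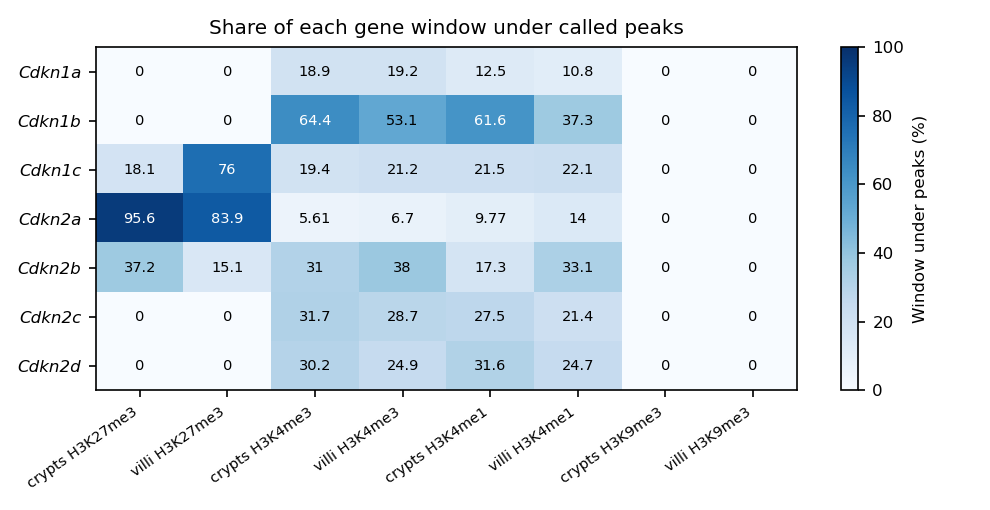
Share of each gene window (gene body and 5 kb on either side) under called peaks, in percent, for the 7 genes (rows) and the 8 peak lists (columns), each from 1 library. H3K27me3 is confined to Cdkn1c, Cdkn2a and Cdkn2b among these genes and lists, H3K4me3 and H3K4me1 cover part of every window, and H3K9me3 covers none.

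Cdkn2a lies on chromosome 4 at 89274471 to 89294653 (GRCm38, minus strand) and has a start for Arf at 89294653 and one for p16 at 89282192. In crypts, H3K27me3 covered 28855 bp of its window in 3 peaks, more of the window than in 98.6% of the genes with any H3K27me3 in theirs. The first of these peaks was 15355 bp wide, ran from 89269520 to 89284874 over the p16 start and the exons shared by both transcripts, and ranked 11 of 7611 by score (52.7, read as a −log10 p-value). The next was 13029 bp wide, ran from 89285732 to 89298760 over the Arf start, and ranked 251 (37.3). The third, 4827 bp from 89299183 to 89304009, ended between the genes and also lay in the Cdkn2b window. These 3 peaks spanned 34490 bp, of which 96.3% was covered. With peaks under 1 kb apart joined they formed 1 domain, and 22 of the 5791 joined domains of crypts were wider.

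In villi the same stretch of Cdkn2a held 8 H3K27me3 peaks instead of 3 and fewer base pairs, 25335. The widest, 11153 bp from 89272071 to 89283223, again lay over the p16 start and ranked 291 of 13797 (45.0), and the next, 8951 bp from 89285773 to 89294723, stopped 70 bp upstream of the Arf start. The span was 34066 bp, of which 85.8% was covered. The 7 gaps between villi peaks were 454 to 1126 bp wide, against 422 and 857 bp for those of crypts. Joined at 1 kb, the villi peaks formed 2 domains of 15186 and 17754 bp. All exons of both Cdkn2a transcripts were covered completely by H3K27me3 in both compartments. The non-coding gene Gm12606 starts in the same window, at 89273403. H3K27me3 and H3K4me1, and no H3K4me3, lay within 1 kb of that start in both compartments.

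The log2 ratio of villi to crypts base pairs under H3K27me3 was −0.19 for Cdkn2a, with 6.71% of the 3756 genes called in both compartments lower. The median of those genes was 0.49, with quartiles of 0.12 and 0.97. More peaks together with fewer base pairs in villi, as at Cdkn2a, were found at 2.1% of those genes. This was 1 of the 3 inhibitor genes called in both, and it is a difference between 2 libraries.

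H3K4me3 lay at the Arf start of Cdkn2a and not at the p16 start. Its peak in crypts was 1694 bp wide (89294190 to 89295883, score 176, rank 8191 of 16489) and in villi 2021 bp (89294083 to 89296103, score 271, rank 3226 of 16977). In crypts all 1694 bp of it lay under H3K27me3, and in villi 1126 of the 2021 bp did, or 55.7%. Of the 7 gaps in villi H3K27me3, the gap of 895 bp from 89294724 to 89295618 lay wholly inside this H3K4me3 peak, and the other 6 held none. The p16 start carried H3K27me3 and a narrow H3K4me1 peak, 694 bp wide in the crypts list and 647 bp in the villi list. This combination without H3K4me3 was seen at 1 of the 12 member start sites in each compartment, beside 1.77% of 54327 distinct start positions in crypts and 2.69% in villi. H3K4me1 over the whole Cdkn2a window was 2950 bp in 4 peaks in crypts and 4220 bp in 3 peaks in villi.

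Libraries of whole crypts and villi mix cells and chromosome copies, so H3K27me3 and H3K4me3 at 1 promoter may come from different cells or from different copies in a cell, and these cannot be told apart. In the same way, fewer cells with a mark and less of it per cell cannot be told apart. Both marks within 1 kb of a start site of the gene were found at 2 of 7 inhibitor genes, Cdkn1c and Cdkn2a, in each compartment, beside 6.57% of genes in crypts and 7.84% in villi.

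Cdkn2b, the p15 gene, ends 11645 bp upstream of the Arf start and lies at 89306299 to 89311039 of chromosome 4 (minus strand). Its start site had no H3K27me3 in either compartment. In crypts, H3K27me3 covered 5484 bp of its window in 2 peaks, and in villi 2228 bp in 1. The peak that villi lacked was 2773 bp wide, ran from 89305507 to 89308279 and covered all of exon 2 (1016 bp), but its score of 11.9 was close to the calling threshold of 10 and ranked 5441 of 7611. The peak found in both compartments was the one between Cdkn2a and Cdkn2b. The log2 ratio of base pairs was −1.30, with 0.666% of genes lower. It was −0.71 with 10 kb on either side and −0.28 with the top 50% of each list by score.

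H3K4me3 over Cdkn2b was a single wide peak in each compartment, and at exon 2 its cover was larger in villi where that of H3K27me3 was larger in crypts. It was 4573 bp in crypts (score 310) and 5606 bp in villi (285), wider than 97.4% and 98.3% of the peaks of its list. It covered 47.7% of exon 2 in crypts and 100% in villi, where H3K27me3 covered 100% in crypts and 0 in villi. Of the H3K4me3 base pairs, 31.7% lay under H3K27me3 in crypts and 0 in villi. H3K4me1 covered 2549 bp in crypts, in 1 peak over the 3′ part of the gene, and 4878 bp in villi, in 2 peaks, and the second villi peak (917 bp, score 10.9) lay upstream of the start.

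**Figure D2:**
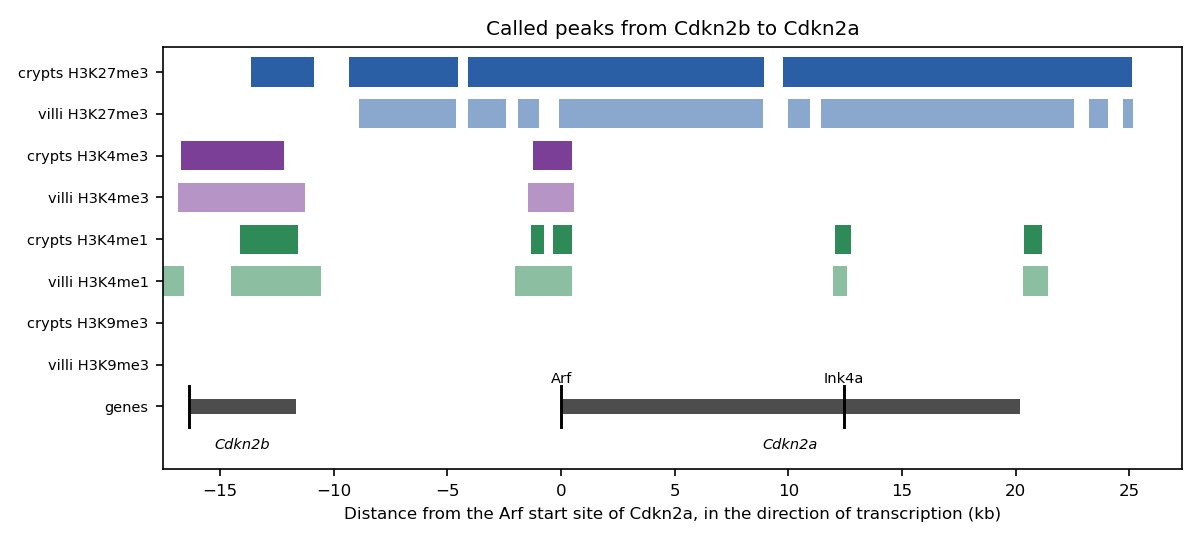
Called peaks from Cdkn2b to Cdkn2a by distance in kb from the Arf start of Cdkn2a, in the direction of transcription, with 1 row for each of the 8 lists and black lines for start sites (the p16 start is marked Ink4a). H3K27me3 runs over Cdkn2a in 3 crypts peaks and 8 villi peaks, H3K4me3 lies at the Arf and Cdkn2b starts and not at the p16 start, and the crypts H3K27me3 peak over Cdkn2b has no villi counterpart.

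The other INK4 genes, Cdkn2c and Cdkn2d, had no H3K27me3. At Cdkn2c, the p18 gene (chromosome 4, 109660876 to 109667189, minus strand), an H3K4me3 peak covered both start sites, 3815 bp wide in the crypts list and 3315 bp in the villi list, and the nearest H3K27me3 peak was 304301 bp away in crypts and 303438 bp in villi. A second H3K4me3 peak in its window, 1364 and 1374 bp, lay at the start of the non-coding gene 9630013D21Rik. H3K4me1 covered 4492 bp in crypts and 3490 bp in villi, in 3 peaks each.

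Cdkn2d, the p19 gene (chromosome 9, 21288410 to 21291407, minus strand), had an H3K4me3 peak at its start, 2158 bp in the crypts list and 1658 bp in the villi list. A second, of 1772 and 1576 bp, lay at the start of Kri1, the next gene on the same strand. The H3K4me1 peak that lay mostly over the gene was 2682 bp wide in the crypts list and 1207 bp in the villi list, a log2 ratio of widths of −1.15. The last exon, covered wholly by crypts H3K4me1, had none in villi. The nearest H3K27me3 peak was 41749 bp away in crypts and 39061 bp in villi.

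Of the Cip/Kip genes, Cdkn1a and Cdkn1b carried H3K4me3 and H3K4me1 alone. Cdkn1a, the p53 target that encodes p21 (chromosome 17, 29090976 to 29100727, plus strand), had 1 H3K4me3 peak, which was 3726 bp wide in crypts (score 481, rank 1165 of 16489) and 3800 bp in villi (384, rank 650 of 16977). It lay over the start at 29093769, that of the downstream promoter printed above, and no peak lay within 1 kb of the upstream start at 29090979. Another start, further downstream at 29097900, had H3K4me3 and H3K4me1 within 1 kb in both compartments and no peak over it. H3K4me1 lay at both ends of the H3K4me3 peak, in peaks of 368 and 2104 bp in crypts and of 467 and 1657 bp in villi, with 63.5% and 60.0% of the H3K4me1 base pairs under the H3K4me3 peak. The nearest H3K27me3 peak was 17405 bp from the gene in crypts and 82947 bp in villi. The transcript AC167363.2, of uncertain status in the annotation, overlaps the start at 29093769 on the other strand, and the peaks cannot be divided between them.

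Cdkn1b, the p27 gene (chromosome 6, 134920401 to 134925513, plus strand), had the most H3K4me3 base pairs in its window of the 7 genes. In crypts it covered 9734 bp in 3 peaks, more of the window than in 99.9% of all genes, and in villi 8026 bp in 3 peaks. The peak at the start was 4843 bp wide in crypts and 3952 bp in the villi list. A second wide peak downstream of the gene, 3963 and 3076 bp, lay over the start of the non-coding gene Lockd, and in crypts it also covered that of Gm44238. H3K4me1 covered 9314 bp in 5 peaks in crypts and 5641 bp in 3 peaks in villi, a log2 ratio of −0.72 with 9.27% of genes lower. Over the gene body alone the direction turned, with 43.6% covered in crypts and 44.9% in villi. The crypts peaks without a villi counterpart lay at the ends of the window, and their scores were 31.6, the highest of the 5, and 10.2, close to the threshold. The nearest H3K27me3 peak was 48349 bp away in crypts and 47279 bp in villi.

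Cdkn1c, the p57 gene (chromosome 7, 143458339 to 143461050, minus strand), is imprinted and expressed from the maternal copy, and reads were not assigned to parental copies. It has a first start at 143461050 and an internal one at 143460173, and H3K27me3 covered the internal start and not the first in both compartments. Its H3K27me3 covered 2307 bp in 2 peaks in crypts and 9666 bp in 3 peaks in villi. The crypts peak over the gene was 2001 bp wide (143458701 to 143460701), with a score of 11.3 that was close to the threshold and ranked 6112 of 7611. The villi peak there was 2979 bp wide (143457841 to 143460819, score 19.4), and it ran past the 3′ end of the gene, which the crypts peak did not reach. A villi peak of 5137 bp upstream of the gene (143462133 to 143467269) had no crypts counterpart. A villi peak of 3893 bp (143452215 to 143456107) and a crypts peak of 434 bp (143453211 to 143453644) lay beyond the 3′ end, and with peaks under 1 kb apart joined the crypts peak was part of a 1755 bp domain that ran out of the window. The log2 ratio of base pairs in the window was 2.07, with 95.3% of genes lower. Over the gene body alone it was 0.31, and with the top 50% of each list by score crypts had no peak and no ratio could be given.

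H3K4me3 at the Cdkn1c start differed little in width, 1745 bp in crypts and 1835 bp in villi, and was low in score, 29.9 and 47.9. A second H3K4me3 peak lay upstream, 725 bp in crypts and 862 bp in villi. The share of H3K4me3 base pairs under H3K27me3 was 55.6% in crypts and 88.0% in villi. For the peak at the start alone it was 78.7% and 82.3%, and for the upstream peak 0 in crypts and 100% in villi, where it lay under the H3K27me3 peak that crypts lacked. The antisense gene Gm44732 starts inside Cdkn1c, and its marks cannot be separated from those of Cdkn1c.

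**Figure D3:**
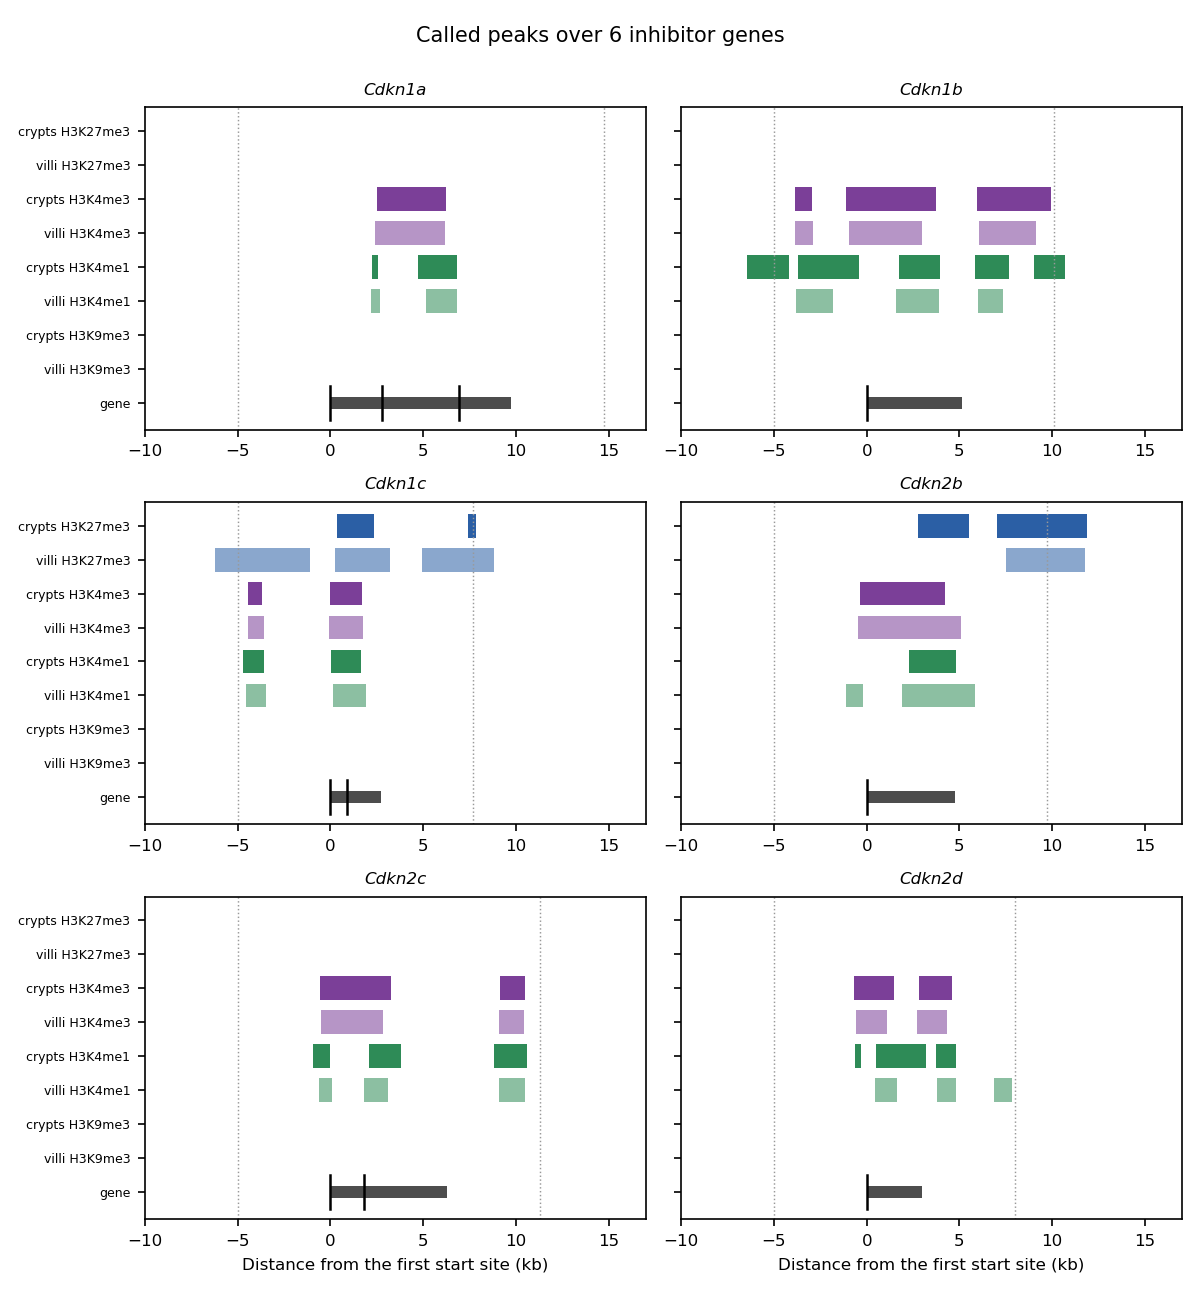
Called peaks over Cdkn1a, Cdkn1b, Cdkn1c, Cdkn2b, Cdkn2c and Cdkn2d by distance in kb from the first start site in the direction of transcription, with 1 row for each of the 8 lists, black lines for start sites and dotted lines for the ends of the window. Cdkn1c shows 3 H3K27me3 peaks in villi, of 2979 to 5137 bp, and 2 in crypts, of 434 and 2001 bp, and Cdkn1a, Cdkn1b, Cdkn2c and Cdkn2d show none.

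Between compartments, the inhibitor genes with H3K27me3 did not move together. Fewer base pairs in villi were found at 2 of 3, Cdkn2a and Cdkn2b, beside 14.0% of the genes called in both, and more at 1 of 3, Cdkn1c, beside 85.5%. More peaks in villi were found at 2 of 3, Cdkn1c and Cdkn2a, beside 40%. Cdkn2a and Cdkn2b share a peak and are neighbours, so their counts are not independent of each other.

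H3K4me3 covered fewer base pairs in villi at 3 of 7 genes (Cdkn1b, Cdkn2c and Cdkn2d), beside 57.9% of the 13633 genes called in both, and the log2 ratios ran from −0.28 at Cdkn1b and Cdkn2d to 0.29 at Cdkn2b. H3K4me1 covered fewer at 4 of 7 (Cdkn1a, Cdkn1b, Cdkn2c and Cdkn2d), beside 47.6% of 14515 genes, with ratios from −0.72 at Cdkn1b to 0.94 at Cdkn2b. At Cdkn2a the ratios were 0.25 for H3K4me3 and 0.52 for H3K4me1, at Cdkn1c 0.13 and 0.04, and at Cdkn1a 0.03 and −0.22. The H3K4me1 direction turned at Cdkn1a, Cdkn1b and Cdkn2a under other settings. Over the gene body alone, H3K4me1 covered 43.6% of Cdkn1b in crypts and 44.9% in villi, and 5.84% and 5.54% of Cdkn2a. With 10 kb on either side it covered 19.9% and 21.1% of the Cdkn1a window. With the top 50% of each list by score it covered 2.80% and 0 of the Cdkn2a window.

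**Figure D4:**
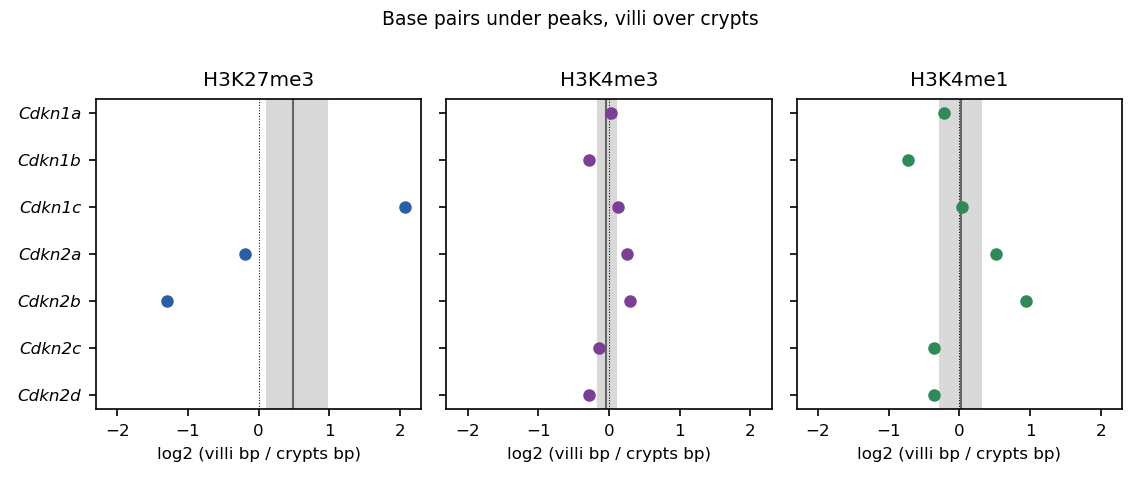
Log2 ratio of villi to crypts base pairs under peaks in each gene window, for H3K27me3, H3K4me3 and H3K4me1, with 1 point per gene called in both compartments, a line for the median of all such genes and grey for their quartiles. For H3K27me3, Cdkn1c (2.07) lies above the quartiles and Cdkn2a (−0.19) and Cdkn2b (−1.30) lie below them.

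Markers of cell types were counted by H3K4me3 at a start site, and they differed between the compartments. All 4 epithelial markers (Epcam, Cdh1, Krt8, Vil1) had a peak in both. Of 5 crypt markers, the crypts list marked 4 and the villi list 3, without Olfm4, and both lists marked 4 of 4 villus markers. Of 3 lymphocyte markers, 0 had a peak in crypts and 2 in villi (Ptprc and Cd3e), and of 3 mesenchymal markers 1 in crypts and 2 in villi, with Acta2 at 0 in both. H3K27me3 lay at 0 lymphocyte markers in crypts and 2 in villi, and at the same number in both for the crypt (2), mesenchymal (2), epithelial (0) and villus (0) markers. The part of other cell types in the differences at Cdkn1c, Cdkn2a and Cdkn2b was not tested.

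The partners of the inhibitors, 26 genes for cyclins, kinases, Rb family proteins, E2f factors and their regulators, were counted in the same way. At a start site, H3K4me3 was found at 26 of 26 in both compartments (57.5% and 57.7% of all genes), H3K4me1 at 24 of 26 (57.7% and 55.9%) and H3K9me3 at 0 (0.378% and 0.31%). H3K27me3 was found at 1 of 26 in crypts (E2f6, which also works in a Polycomb complex) and at 3 of 26 in villi (E2f6 and the repressors E2f7 and E2f8), or 3.85% and 11.5%, beside 13.0% and 16.0% of all genes. At E2f6 it covered 1579 bp in crypts and 4500 bp in villi, and at E2f7 and E2f8 it covered 1276 and 503 bp in villi. In their windows it was called at 2 of 26 in crypts and 5 of 26 in villi, beside 17.9% and 23.0%, with the addition of Ccnd2 in both (8.90% and 8.82% of the window) and E2f1 in villi (2.67%). Cdkn2a, with 95.6% in crypts and 83.9% in villi, had more of its window covered than any of the 26, where the highest was 11.6% at E2f6 in villi.

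The genes most like each inhibitor gene were sought by the sum of absolute differences in percent covered over the 8 lists, in the 5 kb on either side of the first start site. Because the choice used these same values, the likeness of the chosen genes in them follows from it and is no separate result. For Cdkn2a they were the homeobox and forkhead genes Meis2 (23.4 percentage points), Msx1 (30.4) and Foxd2 (30.8), against a median of 228 over all genes. H3K27me3 covered 94.6% of the Meis2 window in crypts and 78.9% in villi, close to the 95.8% and 80.5% of Cdkn2a in this window. For Cdkn1c they were Glis3 (34.5), Tle2 (35.3) and Cdc14b (35.7), against a median of 154, and in all 3 H3K27me3 covered more in villi. For Cdkn2b they were Gpsm3 and Pbx2 (both 28.6) and Cpeb4 (29.9), which had no H3K27me3 in this window, where Cdkn2b had 22.4% in crypts and 0 in villi. The 4 genes without H3K27me3 had closer matches, from 2.82 points for Snrnp35 with Cdkn1a to 13.1 for St3gal6, the last of 3 with Cdkn1b, whose nearest was the histone gene Hist1h3g (5.05).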

How the data were processed

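Per the labels and the study's methods, the authors used Bowtie 1.1.2 to place the reads on the mouse (mm10) and fly (dm6) genomes, samblaster to drop duplicates and then called peaks with MACS2 2.1.1 at p 1e-10 (deepTools 3.1 is also named in the submitters' processing notes). The deposited lists have no header, and their value for each peak was taken as the −log10 p-value because none is under 10, as that threshold gives. The spike-in does not enter this value, which moves with library depth. The names of the lists put the crypts input beside crypts libraries and the villi input beside villi libraries. Here, peaks were overlapped (from 1 bp) with gene bodies and 5 kb on either side, and with protein-coding start sites and 1 kb on either side, of GENCODE release 21 on GRCm38, in pandas 2.3.3 and NumPy 2.4.6 under Python 3.11.15, and drawn in Matplotlib 3.10.9. The overlap code was tested on simulated data, where it found 1061 of 1061 windows that held a planted peak.

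The genes named are the 7 members, genes that start in their windows, cell type markers, the partners with H3K27me3 at a start site or with H3K4me3 that differed, and the 3 nearest genes by likeness. E2f1 and Ccnd2 were added after their values were seen. The members and lists were chosen with earlier results of these data known. Alternatives were other windows, a higher score, joined peaks, a larger overlap, and other gene sets as background.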

Additional observations from a re-analysis of the deposited data

How the results depend on the processing

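With 1 library per compartment and modification, no library could be left out and no replicate error can be given. No paired analysis was possible because each group has 1 library and the labels carry no replicate numbers. Of 85 alternative values of the counts of genes and of the H3K27me3 ratios, 79 stayed within 1.5 times or did not move and 6 moved. A count that fell from 3 to 2 genes was taken as within 1.5 times. The H3K9me3 counts were 0 throughout, and joined peaks could not remove a gene, so many values could hardly move. Only the H3K27me3 ratios have a direction, and 0 of those that could be given changed it. H3K4me3 and H3K4me1 directions were not among the 85, and H3K4me1 turned at Cdkn1a, Cdkn1b and Cdkn2a under some settings. Keeping the top 50% of each list by score left 4 of 7 genes with villi H3K4me1 in the window, 1 with villi H3K4me1 at a start site and 1 with crypts H3K27me3 at a start site (Cdkn2a), and moved the Cdkn2b log2 ratio to −0.28. It left Cdkn1c with no crypts H3K27me3, so no ratio could be given. The gene body alone gave 0.31 for Cdkn1c and no ratio for Cdkn2b, which had no villi base pairs there. The Cdkn2b ratio was −0.71 with 10 kb on either side. The Cdkn2a ratio ran from −0.26 to −0.05. Among genes with windows of 15 to 40 kb, a range that leaves out Cdkn1c, Cdkn2b and Cdkn2d, 15.5% had H3K27me3 in crypts and 20.5% in villi. Causes of these shifts were not tested. Low scores limit the crypts H3K27me3 peaks of Cdkn1c and the crypts peak over exon 2 of Cdkn2b.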
